A study of Mus musculus with 83 samples.

Results

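The colon of 24-month-old mice was compared with that of 3-month-old mice. The members are the libraries whose labels give 24 or 3 months, 17 and 16 mice, which are 33 of the 83 mice in the series. All were male mice of the C57BL/6J/Ukj strain kept for aging, and the labels name no treatment and no genetic change in either group. A piece of the proximal colon of each mouse was rinsed, frozen and extracted, and its polyadenylated RNA was sequenced with the strand kept. The libraries were prepared in 3 batches, each with 5 or 6 mice of either age. Mice of 9, 15 and 28 months were in the same model, where they share the batch terms and the estimate of spread, and their levels are given only to place some genes on the course between the ages.

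The wall of the colon is a sheet of epithelium folded into crypts, set on connective tissue with vessels, nerves and immune cells and wrapped in smooth muscle. Stem cells at the crypt base renew absorptive colonocytes, mucus-making goblet cells, hormone-making enteroendocrine cells and chemosensory tuft cells. Plasma cells below the epithelium release immunoglobulin A, and macrophages, mast cells and lymphocytes guard the barrier. In such whole-tissue RNA, fewer cells of a type and less RNA per cell cannot be told apart.

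Between 26758538 and 50861544 read pairs were counted per mouse, and levels are given below as CPM, counts scaled to library size by TMM. Every library held the transcripts that define large bowel. Car1, the carbonic anhydrase of surface colonocytes, was at 3579 to 8818 CPM, the mucin Muc2 at 15060 to 21860 CPM, and Cdx2, a homeobox factor of intestinal epithelium, at 270 to 507 CPM. Libraries of the 3-month group stood apart in 2 ways. In mice 10, 12 and 16 the smooth muscle myosin Myh11 was at 216 to 320 CPM, against 628 to 1276 CPM in the other 13 mice of 3 months and 836 to 1240 CPM at 24 months. In mice 5, 10, 13, 15 and 16 the inducible chaperone Hspa1a was at 43.3 to 186 CPM, against 4.99 to 11.9 CPM in the other 11. Many of the list counts below are given also without the 3 mice of low Myh11 and the 5 mice of high Hspa1a.

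At 24 months 3054 genes were higher and 3262 lower than at 3 months, of 18325 tested, at an adjusted p below 0.1. All adjusted p-values here come from edgeR's quasi-likelihood F-test with Benjamini-Hochberg adjustment. The called genes are 34.5% of those tested, 16.7% higher and 17.8% lower, and these shares are the background for the counts that follow. Most changes were small. The median size among called genes was 0.23 on the log2 scale, while 237 genes rose and 72 fell by more than 2-fold, and 50 rose and 15 fell by more than 4-fold. In 57 genes every mouse of 24 months lay above every mouse of 3 months, 0.311% of the genes tested, and in 38 genes, 0.207%, every one lay below. The called genes numbered 4045 without mice 10, 12 and 16, and without the 5 mice of high Hspa1a they numbered 3075. Fewer mice give fewer calls at the same effect size, here and in the list counts below. All 6316 genes called in the main fit kept their direction without mice 10, 12 and 16.

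The largest rises were led by transcription factor genes of embryonic patterning. Dmrta2, a DM-domain factor known from the developing brain, lies on chromosome 4 between 109978053 and 109983687 (GRCm38) and had its lowest, median and highest levels at 0.11, 0.27 and 0.44 CPM at 3 months. At 24 months they were 7.31, 10.1 and 13.5 CPM. The highest young mouse was far below the lowest old mouse. Tfap2a, a factor of neural crest and epidermis on chromosome 13, was at 0, 0.070 and 0.19 CPM at 3 months, a few read pairs per library, and at 1.96, 2.38 and 2.74 CPM at 24 months. Irx2, an Iroquois homeobox gene on the same chromosome, went from a median of 0.026 CPM to 1.04 CPM. At their 3-month levels Dmrta2, Tfap2a and Irx2 passed the filter on low counts through the older mice, so their values are a description only. Pdx1, the homeobox factor of pancreas and duodenum, was at 0.038, 0.366 and 0.747 CPM in the young mice and at 0.943, 1.60 and 1.91 CPM in the old mice, a log2 fold change of 1.96 ± 0.17 (SE). No old mouse was as low as a young one. At so low a 3-month level Pdx1 can also have passed the filter through the older mice, so its values are a description only. Gata4, which marks stomach and small intestine, rose by 1.87 ± 0.22 on the same scale. Of its 17 values at 24 months, 14 were above the highest at 3 months. Msx1, a homeobox gene of mesenchyme, rose by 1.71 ± 0.13 with no overlap. Dmrta2, Tfap2a, Pdx1 and Gata4 are among the 12 largest rises of genes with a mean of at least 1 CPM and the same direction in every batch, while Irx2 and Msx1 were added to the description after their values were seen.

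Outside the transcription factors, the largest rises included secreted and membrane proteins. Vsig2, an immunoglobulin-domain membrane protein of surface epithelia, was at 15.8, 22.3 and 26.0 CPM at 3 months and at 73.3, 85.0 and 93.7 CPM at 24 months, a 3.92-fold rise (log2 1.97 ± 0.06; edgeR adjusted p = 1.95e-46). Its log2 difference was 1.98, 1.88 and 2.09 within the 3 batches. Scgb1b3, a secretoglobin, rose 9.05-fold, from a median of 0.78 CPM to 7.76 CPM. Of 28 secretoglobins, listed after values were seen, 6 passed the filter on low counts, with log2 fold changes from 0.67 for Scgb3a1 to 3.55 for Scgb2b20. Scgb2b20 had a median of 0.145 CPM at 3 months, and a gene that low can pass the filter through the older mice, so these 6 are a description only. Most of these genes are close copies in a cluster on chromosome 7, and reads that matched several copies were not counted, so their levels are uncertain. Mmp12, the macrophage elastase, went from 0.41, 0.79 and 1.29 CPM to 2.33, 4.99 and 9.87 CPM. Gpnmb, a glycoprotein of lysosome-rich macrophages, went from 2.01, 2.97 and 4.93 CPM to 7.26, 10.6 and 18.9 CPM. Neither gene overlapped between the ages. Their log2 fold changes were 2.54 ± 0.21 and 1.88 ± 0.16. Pla2g4c, a phospholipase A2, and Pnliprp2, a pancreatic lipase relative, were also among the 12 but with wide spread. Pla2g4c was at 2.76, 11.7 and 106 CPM at 3 months and at 3.85, 47.8 and 498 CPM at 24 months, so that 8 of 17 old mice lay below the young median. The groups overlapped over most of their range. The adjusted p of 0.0107 became 0.0518 without 24-month mouse 4, with the log2 fold change going from 2.08 to 1.53. Pnliprp2 had 6 of 17 old mice above the highest young one (log2 1.85 ± 0.52). With scores of colonocyte and smooth muscle markers as covariates, Pla2g4c was at 1.395 and Pnliprp2 at 1.165, and neither passed (edgeR adjusted p = 0.155 and 0.146).

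**Figure D1:**
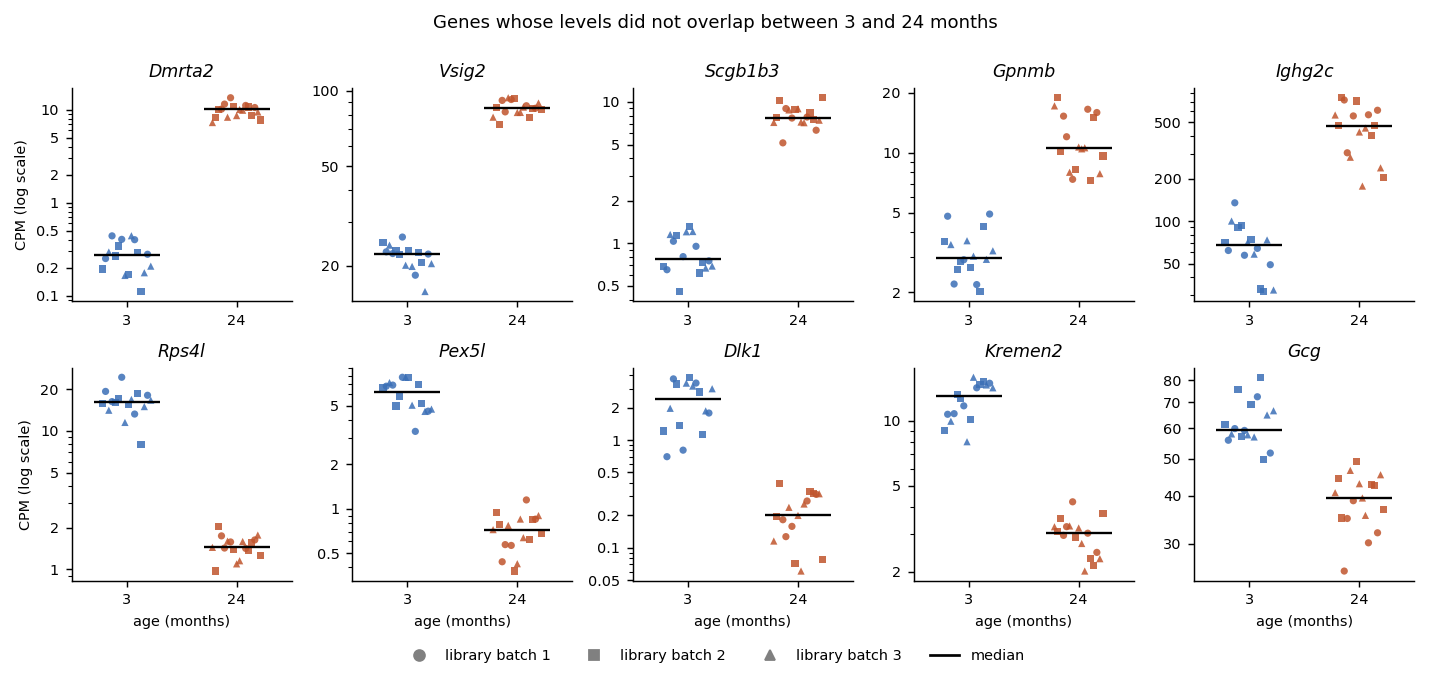
Levels in CPM (log scale) of 10 genes in each mouse at 3 months (blue, n = 16) and 24 months (orange, n = 17); symbols give the library batch and lines the median. Dmrta2, Vsig2, Scgb1b3, Gpnmb and Ighg2c lie higher and Rps4l, Pex5l, Dlk1, Kremen2 and Gcg lower at 24 months, with no overlap of the groups and all 3 batches mixed within each.

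The largest falls included an imprinted gene, a ribosomal protein copy and a channel regulator. Dlk1, an imprinted Notch-ligand-like gene on chromosome 12, was at 0.70, 2.38 and 3.82 CPM at 3 months and at 0.061, 0.20 and 0.39 CPM at 24 months, values that are a description only since at the later level it would not pass the filter. Rps4l, a ribosomal protein S4-like gene on chromosome 6, was at 7.99, 16.2 and 24.4 CPM and then at 0.97, 1.44 and 2.04 CPM (log2 -3.43 ± 0.15; edgeR adjusted p = 3.89e-34). Pex5l, a relative of the peroxisome import receptor that is known to regulate ion channels in neurons, was at 3.35, 6.23 and 7.80 CPM and then at 0.38, 0.72 and 1.15 CPM (log2 -3.07 ± 0.13). In all 3 genes the highest old mouse was below the lowest young mouse. Kremen2, a receptor through which Dickkopf proteins restrain Wnt signalling, fell 4.23-fold from a median of 13 CPM to 3.02 CPM. Lipo3, a lipase, fell 2.74-fold from 13.6 to 4.92 CPM, and Zfp37, a zinc finger gene, fell 2.48-fold from 9.97 to 3.98 CPM. None of these 3 overlapped between the ages. S100g, the calcium-binding calbindin of absorptive epithelium, was at 9.10, 19.3 and 56.4 CPM and then at 0.25, 3.13 and 14.1 CPM, a log2 fold change of -2.44 ± 0.37, and 16 of 17 old mice were below the lowest young mouse. Ugt8a, which makes galactosylceramide, fell by 2.21 ± 0.23 on the log2 scale and Mal, a proteolipid of apical membranes, fell by 1.64 ± 0.19.

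The medians of some of these genes at 15 months were close to those at 24 months, and those of others were not. The 9-, 15- and 28-month values are from the same model's libraries and are given as levels only. Median Rps4l was 3.05 CPM at 9 months and 1.47 CPM at 15 months, and then stayed between 1.22 and 1.47 CPM. Median Pex5l was 1.44, 0.69, 0.72 and 0.78 CPM at 9, 15, 24 and 28 months. Rian reached 16.3 CPM at 9 months and 13.3 CPM at both 15 and 24 months. Other genes changed more gradually or later. Kremen2 was at medians of 7.45, 5.51, 3.02 and 2.37 CPM at 9, 15, 24 and 28 months, and Pdx1 at 0.669, 1.18, 1.60 and 1.74 CPM. Tfap2a was at a median of 0.065 CPM at 9 months and 0.18 CPM at 15 months, before 2.38 CPM at 24 months and 3.97 CPM at 28 months. Dmrta2 was at 0.54, 2.44, 10.1 and 12.2 CPM at these 4 ages. Vsig2 lay between, at 39.8, 54.4, 85.0 and 96.8 CPM.

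**Figure D2:**
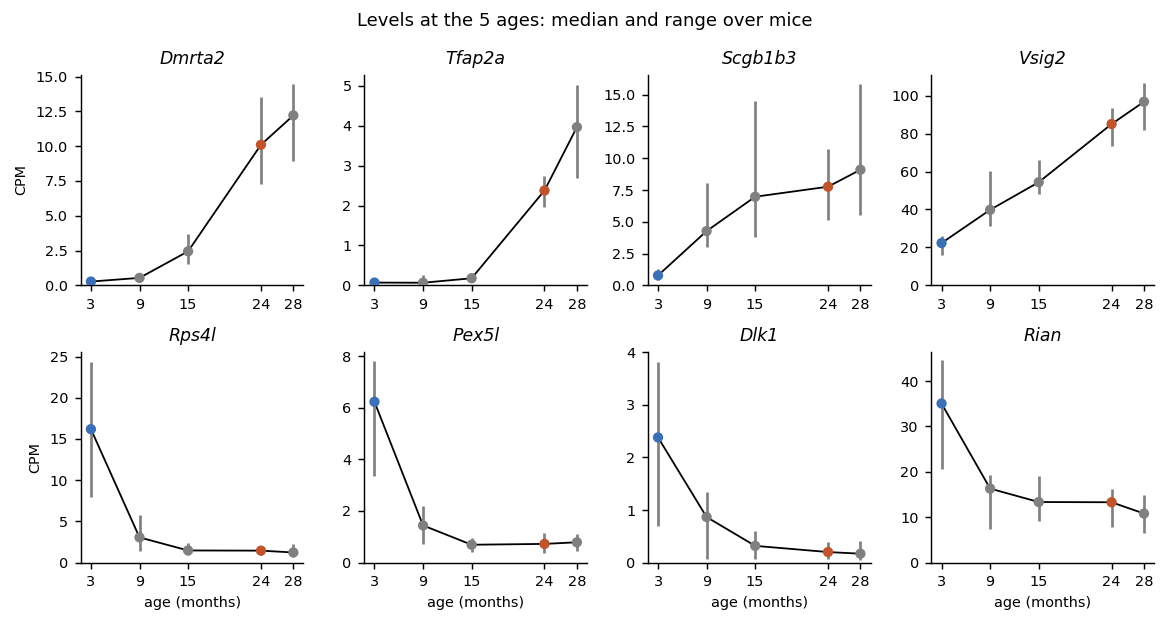
Median level in CPM (points) and range over mice (bars) at 3, 9, 15, 24 and 28 months for 4 genes that were higher and 4 that were lower at 24 months (orange) than at 3 months (blue). Tfap2a medians stay below 0.2 CPM up to 15 months, Dmrta2 and Vsig2 medians are higher at each later age, and Rps4l, Pex5l, Dlk1 and Rian are lowest from 15 months on.

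Other regulators were described as groups. Among 22 transcription factors of gut epithelium and body regions, listed after values were seen, 7 rose and 9 fell. The 7 were the 6 factors above and Gata3 (log2 1.13 ± 0.13). The 9 that fell are factors of gut epithelium, with log2 fold changes of -0.27 to -0.08. Leaving out mice 10, 12 and 16, 7 rose and 5 fell. Cdx1, a caudal homeobox factor, was at 262, 333 and 403 CPM and then at 237, 273 and 369 CPM, a log2 fold change of -0.27 ± 0.05 (edgeR adjusted p = 5.52e-05). Its groups overlapped, with 16 of 17 old mice below the young median. Cdx2 had an adjusted p of 0.0797 and Hnf4a (log2 -0.11) one of 0.0606. Among Hox genes, which set position along the gut, 1 of 32 rose and 5 fell, with a median log2 fold change of -0.03. Hoxa7 rose by 0.29 ± 0.05 and Hoxb9 fell by 0.20 ± 0.05.

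Of 15 imprinted genes tested, a list also made after values were seen, 8 fell and 3 rose, and 1 rose without either the 3 mice of low Myh11 or the 5 mice of high Hspa1a. Meg3, Rian and Mirg are noncoding RNAs of the same imprinted domain of chromosome 12 as Dlk1. Rian was at 20.6, 35.0 and 44.6 CPM and then at 7.78, 13.3 and 16.1 CPM (log2 -1.41 ± 0.10), Mirg fell by 1.91 ± 0.13 and Meg3 fell by 0.85 ± 0.11. Rian and Mirg did not overlap between the ages, and 15 of 17 old mice were below the lowest young mouse for Meg3. The clustered beta protocadherins, also listed after values were seen, are neural adhesion proteins whose genes are close copies side by side. Of 22 listed, 20 passed the filter on low counts, and of these 18 rose and none fell, with a median log2 fold change of 0.56. Their mean log2 CPM had a median of -0.49 at 3 months, and genes that low can pass the filter through the older mice. Reads that matched several copies were not counted, so these counts are a description only. Pcdhb16 had the largest, 1.40 ± 0.11, from a median of 1.04 CPM to 2.79 CPM with no overlap. Without mice 10, 12 and 16, 13 of the 20 rose, with a median of 0.45, and without the 5 mice of high Hspa1a 11 rose.

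The 25 lists of cell type markers were counted by layer of the wall. Of 49 epithelial markers tested, 14 fell and 3 rose, with a median log2 fold change of -0.10, of 83 stromal markers 35 rose and 3 fell (median 0.22), and of 76 immune markers 34 rose and 9 fell (median 0.24). These are 28.6% of epithelial markers lower, 42.2% of stromal and 44.7% of immune markers higher, beside 17.8% lower and 16.7% higher among all genes, whose median was -0.0056. These counts changed when the libraries that stood apart were left out, which also leaves fewer mice for the test. Without mice 10, 12 and 16, 8 epithelial markers fell and 3 rose, 19 stromal markers rose and 5 fell, and 26 immune markers rose and 6 fell. Without the 5 mice of high Hspa1a, 9 epithelial markers fell, and 27 stromal and 22 immune markers rose. The epithelial, stromal and immune medians were -0.07, 0.09 and 0.19 without the 3 mice and -0.07, 0.16 and 0.19 without the 5. With scores of colonocyte and smooth muscle markers as covariates, 8 epithelial markers fell and 3 rose, 19 stromal markers rose and 19 fell, and 21 immune markers rose and 6 fell. Of the 19 stromal falls 12 were enteric neuron markers, and the markers that make up the scores are in these counts. All 8 tested markers of neutrophils and mast cells, of 16 listed, are among the 34 immune rises, and so is the low eosinophil gene Ccr3.

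**Figure D3:**
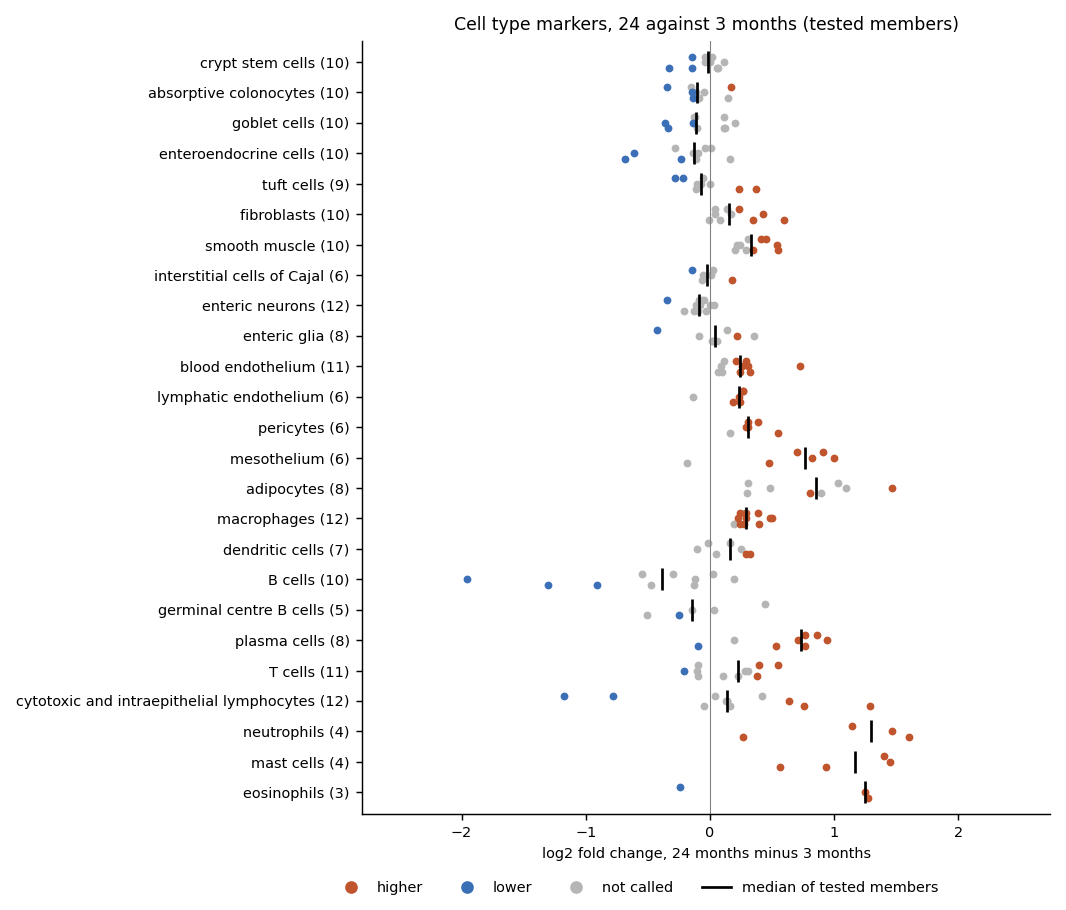
Log2 fold change (24 months minus 3 months) of each tested marker of 25 cell types, with the number tested in brackets; orange and blue points passed the test as higher and lower, grey points did not, and black bars are medians. Epithelial medians lie between -0.13 and -0.02, most stromal and myeloid medians are above 0, and B cell markers have the lowest median, -0.38.

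In the epithelium 3 of 10 markers fell in each of the crypt, colonocyte, goblet and enteroendocrine lists and 2 of 9 in the tuft list. Gcg, the proglucagon gene of L cells, was at 49.7, 59.5 and 81.4 CPM at 3 months and at 25.5, 39.5 and 49.2 CPM at 24 months, a 1.61-fold fall (log2 -0.69 ± 0.07; edgeR adjusted p = 1.80e-12). Every old mouse was below every young mouse. Insl5, the other peptide hormone of colonic L cells, fell by 0.61 ± 0.16 and Neurod1, a factor of endocrine differentiation, fell by 0.23 ± 0.09 (adjusted p = 0.0442, and 0.101 without the 3 mice of low Myh11), while the other 7 enteroendocrine markers, Chga and Pyy among them, did not pass. Of 10 goblet cell markers the secretory lineage factors Atoh1 (log2 -0.36 ± 0.09) and Spdef (-0.34 ± 0.10) fell, as did the kallikrein Klk1 (-0.13 ± 0.05), and none rose. Klk1 had an adjusted p of 0.308 without the 3 mice of low Myh11 and 0.125 without the 5 of high Hspa1a, Spdef one of 0.124 without the 5, and Zg16 rose without either set. A total of 2 goblet markers fell without the 3 mice and 3 without the 5, Muc2 and Agr2 with Atoh1 in the latter. Atoh1 was at 102, 139 and 166 CPM and then at 73.0, 111 and 131 CPM, and all 17 old mice were below the young median, though the groups overlapped. Lgr5, the receptor that marks crypt stem cells, fell by 0.33 ± 0.10, from 7.04, 9.03 and 10.7 CPM to 5.17, 6.50 and 10.6 CPM. Sox9 and Slc12a2 were the other crypt markers that fell, with adjusted p of 0.0928 and 0.0301. Without the 3 mice of low Myh11 these were 0.217 and 0.131, without the 5 mice of high Hspa1a 0.21 and 0.129, and Lgr5 was the 1 crypt marker that passed in both cases. The call of Sox9 was lost in 19 of 33 fits without 1 library. Of 27 cell cycle genes 0 passed the edgeR test in either direction and 0 passed DESeq2, with 1 at an unadjusted p under 0.05 in edgeR, and 4 were lower without the 5 mice of high Hspa1a. Colonocyte markers fell in 3 of 10 (Slc20a1, Krt20 and Guca2a) and rose in 1, the fatty acid binding protein Fabp2 (0.17 ± 0.06). Of these falls 1 was called without the 3 mice of low Myh11 and 0 without the 5 mice of high Hspa1a. Krt20 then had adjusted p of 0.233 and 0.277 without the first and the second set of mice, and Guca2a 0.504 and 0.685. The call of Guca2a was lost in 17 of 33 fits without 1 library. In tuft cells Trpm5 and Pou2f3 fell and Ptgs1 and Alox5ap rose, and without either set of mice 1 fell and 1 rose.

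Genes that carry ions and nutrients across the colonocyte fell in 11 of 25 tested and rose in 1, with a median log2 fold change of -0.13. Slc6a14, an amino acid transporter, was at 556, 751 and 962 CPM and then at 421, 573 and 696 CPM (log2 -0.38 ± 0.06; edgeR adjusted p = 5.65e-07). Atp1b1, the beta subunit of the sodium pump, fell by 0.32 ± 0.05, the sodium channel subunit Scnn1b fell by 0.48 ± 0.09 and the potassium channel subunit Kcne3 fell by 0.38 ± 0.08. Their groups overlapped, with 8, 14, 6 and 13 of 17 old mice below the lowest young mouse for the 4 genes in this order, so for Slc6a14 and Scnn1b most old mice lay within the young range. Slc26a3, the chloride-bicarbonate exchanger, did not pass (log2 -0.10, adjusted p = 0.36). Of 17 tight junction genes 6 fell and none rose, among them Marveld3 (-0.21 ± 0.04) and the pore-forming claudin Cldn2 (-0.42 ± 0.14), whose adjusted p of 0.0166 was 0.319 without the 3 mice of low Myh11. Without mice 10, 12 and 16, 6 transport genes and 2 tight junction genes fell, and the counts were the same without the 5 mice of high Hspa1a. With scores of colonocyte and smooth muscle markers in the model, 6 transport genes and 1 tight junction gene fell.

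In the stroma, 7 of 11 markers of the vessel lining rose. Vwf, the von Willebrand factor of endothelium, was at 15.8, 19.1 and 21.7 CPM at 3 months and at 25.9, 31.0 and 39.5 CPM at 24 months, a 1.66-fold rise with no overlap (log2 0.73 ± 0.07; edgeR adjusted p = 8.40e-14). None of the 11 fell, and Flt1, Esam and Pecam1 rose with log2 fold changes of 0.32, 0.29 and 0.21, and the count was again 7 without mice 10, 12 and 16 and without the 5 mice of high Hspa1a. Of 6 lymphatic markers 5 rose, Lyve1, a hyaluronan receptor, by 0.27 ± 0.06. Without either set of mice 4 rose and Prox1, the factor of lymphatic identity, fell (log2 -0.25 without the 3 mice of low Myh11 and -0.24 without the 5 of high Hspa1a). Of 6 pericyte markers 5 rose, led by Notch3 (0.55 ± 0.08), with 2 left when mice 10, 12 and 16 were not used. Mesothelial markers, which belong to the outer surface of the gut, rose in 5 of 6 with a median of 0.76, in 3 of 6 without the 3 mice of low Myh11 and in 2 of 6 with marker scores as covariates. Fat cell markers rose in 2 of 8, Fabp4 and Retn, and in 1 without those 3 mice. Adipoq ranged widely within both ages and did not pass (log2 0.90, adjusted p = 0.309). The mean log2 CPM of the 8 fat cell markers was -0.58 to 4.12 at 3 months and -0.91 to 4.997 at 24 months, and its part in the other results was not tested.

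Of 10 smooth muscle genes tested, 5 rose and none fell. Des, the intermediate filament desmin, was at 108, 624 and 941 CPM at 3 months and at 578, 762 and 1024 CPM at 24 months (log2 0.54 ± 0.18; adjusted p = 0.016). The 3 lowest young values, 108 to 178 CPM, are mice 10, 12 and 16, and without them none of the 10 genes passed and their median went from 0.33 to 0.11. These mice were picked by low levels of the same genes, so the values without them are a description. Of 12 neuronal markers 1 fell, Vip, the vasoactive intestinal peptide of inhibitory motor neurons, at 15.4, 35.4 and 52.1 CPM and then at 15.1, 29.0 and 42.1 CPM (log2 -0.35 ± 0.11; adjusted p = 0.011). The median of the 12 was -0.09. Their mean log2 CPM had a median of 2.87 at 3 months and 2.83 at 24 months. It too was low in mice 10, 12 and 16, at 1.40 to 1.72, against 2.375 to 3.55 in the other young mice. Without mice 10, 12 and 16 the median log2 fold change was -0.29 with 3 genes lower. It was -0.39 with all 12 lower when colonocyte and smooth muscle scores were in the model.

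Matrix genes changed selectively. Col6a5, a chain of type VI collagen, was at 3.45, 6.11 and 7.49 CPM and then at 12.2, 17.3 and 27.5 CPM, a 3.16-fold rise without overlap (log2 1.66 ± 0.12; edgeR adjusted p = 3.16e-20). Of 39 collagen genes 14 rose and 3 fell, with a median of 0.10. Col8a1, a short-chain collagen of vessel walls, fell by 1.00 ± 0.15. The bulk fibrillar collagens Col1a1, Col1a2 and Col3a1 had log2 fold changes of 0.04, 0.04 and -0.01 and did not pass. Elastic fibre and crosslinking genes rose in 11 of 15 and fell in 1, with Fbln5 at 0.43 ± 0.07 and the lysyl oxidase Loxl4 at 0.56 ± 0.10, while Fbn2 fell by 0.52 ± 0.13. Metalloproteinases and their inhibitors rose in 9 of 16 and fell in 1, led by Mmp12, with Timp3 at 0.36 ± 0.07. Of 10 fibroblast markers 4 rose, Dcn (decorin) by 0.43 ± 0.08, and 2 rose without the 3 mice of low Myh11. With mice 10, 12 and 16 left out, 8 collagens and 6 elastic fibre genes rose.

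The immune changes were led by antibody genes. Ighg2c, the constant region of an immunoglobulin G subclass, was at 31.7, 67.2 and 135 CPM at 3 months and at 177, 473 and 746 CPM at 24 months, a 6.75-fold rise (log2 2.75 ± 0.21; edgeR adjusted p = 2.09e-19). Ighg2b went from 37.2, 60.3 and 86.0 CPM to 96.4, 208 and 579 CPM, a 4.42-fold rise. Every old mouse lay above every young mouse for both. Ighg1 rose by 2.12 ± 0.52 with wide spread, and 8 of 17 old mice were above the highest young one. Igha, the class of mucosal antibody, was at 1492, 2228 and 3580 CPM and then at 1658, 3687 and 7043 CPM, a 1.63-fold rise, and Ighm, the class made before switching, rose 2.16-fold. Ighd, carried by resting B cells, fell by 1.303 ± 0.46, with an adjusted p of 0.0269 that was 0.0765 without 3-month mouse 14. In all, 9 of 11 constant genes rose and 1 fell, and of 175 variable segments 56 rose and 7 fell, lists added after values were seen. The variable segments are close copies, and reads that matched several were not counted.

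Plasma cells secrete antibody and arise from B cells. Of 8 plasma cell genes 6 rose, with a median of 0.74. Mzb1, a chaperone of antibody assembly, went from 1.88, 2.97 and 4.68 CPM to 2.79, 5.17 and 11.9 CPM (log2 0.94 ± 0.20), and Irf4, which drives plasma cell fate, rose by 0.86 ± 0.18. Of 17 old mice 10 were above the highest young one for Mzb1 and 13 for Irf4. Sdc1, a plasma cell marker that colonocytes also make, fell by 0.10 ± 0.04, a call that was lost in 8 of 33 fits without 1 library and without either set of mice. Of 10 B cell genes 3 fell, none rose and 7 did not pass. Fcer2a (CD23) was at 0.12, 1.95 and 7.46 CPM and then at 0, 0.39 and 2.55 CPM (log2 -1.95 ± 0.50; edgeR adjusted p = 0.0023), and Cr2 and Pax5 fell by 1.31 ± 0.42 and 0.91 ± 0.40. Cd79a, at 0.19, did not pass. Without 3-month mouse 14 the adjusted p of Pax5 went from 0.0833 to 0.213, and its call was lost in 17 of 33 fits without 1 library. The mean log2 CPM of the 10 B cell markers was -0.40 to 3.64 at 3 months and -0.14 to 2.93 at 24 months, so the ages overlapped widely.

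Macrophage markers rose in 10 of 12, with a median of 0.29. Cx3cr1, the fractalkine receptor of resident macrophages, was at 11.4, 15.2 and 17.7 CPM and then at 10.6, 20.6 and 27.9 CPM (log2 0.49 ± 0.10; edgeR adjusted p = 0.00026), with 14 of 17 old mice above the highest young mouse. Cd163, Csf1r and Cd68 rose by 0.50, 0.39 and 0.39. The mean log2 level of the 12 markers was above the young median in all 17 old mice. Without mice 10, 12 and 16 the count was 7, and without the 5 mice of high Hspa1a it was 4, with medians of 0.24 and 0.23.

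Complement genes, which coat and lyse microbes and are made by stromal cells and macrophages, rose in 12 of 17 and none fell, with a median of 0.47. C4b, a component of the classical pathway, went from 33.2, 50.3 and 62.7 CPM to 65.3, 74.9 and 89.9 CPM (log2 0.67 ± 0.09; edgeR adjusted p = 2.89e-09). Every old mouse was above every young mouse. C3, the central component, rose 2.05-fold and C7, of the terminal complex, 2.01-fold. The count was 11 without mice 10, 12 and 16 and 11 without the 5 mice of high Hspa1a. Chemokines rose in 11 of 23 and fell in 1. Cxcl13, which draws B cells, and Cxcl14 and Cxcl12, made by stroma, rose by 0.92, 1.09 and 0.34, and Ccl6, the gene that fell, was at 384, 459 and 512 CPM and then at 276, 318 and 371 CPM with no overlap (log2 -0.50 ± 0.06). Without mice 10, 12 and 16, and likewise without the 5 mice of high Hspa1a, 7 chemokines rose.

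Genes that present peptides on MHC class II rose in 7 of 12 and none fell, with a median of 0.40. Without the 3 mice of low Myh11 5 rose, and without the 5 mice of high Hspa1a 5 rose and 1 fell, with a median of 0.27. Cd74, the invariant chain, was at 248, 364 and 524 CPM and then at 232, 574 and 868 CPM (log2 0.71 ± 0.16; edgeR adjusted p = 0.00071). H2-DMb1 rose by 0.72 ± 0.17, H2-Eb1 by 0.49 ± 0.14, H2-Aa by 0.54 and Ciita, the coactivator of the pathway, by 0.40. For Cd74, 13 of 17 old mice were above the highest young one and 1 was below the lowest. H2-Eb2, H2-Oa, H2-Ob, H2-DMb2 and Ctss did not pass. The Y box, a promoter element to which NF-Y binds, was searched as CTGATTGG on both strands in 300-base windows from RefSeq (GRCm38.p6) that reach from 250 bases before to 50 bases after each start. It was in 4 of the 9 class II genes that have a window (H2-Aa, H2-Eb1, H2-Eb2 and H2-Oa) and in 4.1% of all 32851 windows. The windows of a pair of genes that rose are shown with the match in capitals, H2-Aa at chr17:34287774-34288073 (minus strand) and H2-Eb1 at chr17:34305617-34305916 (plus strand), each read in the direction of transcription. A match is only a match of letters, and H2-Eb2 (log2 -0.01) and H2-Oa (-0.28) have it too.
H2-Aa: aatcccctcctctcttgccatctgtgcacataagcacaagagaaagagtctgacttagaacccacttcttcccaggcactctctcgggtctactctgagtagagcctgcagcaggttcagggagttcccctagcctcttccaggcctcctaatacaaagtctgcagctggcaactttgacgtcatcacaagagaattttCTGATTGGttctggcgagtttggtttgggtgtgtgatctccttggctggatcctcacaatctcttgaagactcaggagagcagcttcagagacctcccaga
H2-Eb1: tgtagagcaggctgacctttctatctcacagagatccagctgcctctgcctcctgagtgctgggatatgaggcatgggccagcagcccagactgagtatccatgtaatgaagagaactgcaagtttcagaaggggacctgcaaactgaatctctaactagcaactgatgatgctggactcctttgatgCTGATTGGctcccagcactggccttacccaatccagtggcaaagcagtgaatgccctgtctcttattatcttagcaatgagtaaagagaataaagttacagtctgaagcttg

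Cells of other immune lineages gave smaller or mixed groups. All 4 neutrophil genes that passed the filter on low counts rose, of 9 listed, with S100a9 at 0, 0.087 and 0.63 CPM and then at 0.075, 0.36 and 1.27 CPM. All 4 mast cell genes that passed it rose, of 7 listed, with the mucosal protease Mcpt1 at 0.71, 1.69 and 5.11 CPM and then at 1.28, 3.61 and 28.2 CPM (log2 1.45 ± 0.39; adjusted p = 0.0037). The other listed genes were below that filter, so these counts are only a description. Of 4 eosinophil genes 3 were tested, of which Prg2 and Ccr3 rose by 1.25 and 1.27. Ccr3 had a median of only 0.27 CPM at 3 months and can have passed the filter through the older mice, so its value is a description only. Siglecf fell by 0.24, a call that was lost without either set of mice (adjusted p = 0.188 and 0.308) and in 6 of 33 fits without 1 library. Of 12 genes of cytotoxic and intraepithelial lymphocytes 3 rose, 2 fell and 7, Cd8a and Gzmb among them, did not pass. Eomes, a factor of effector and memory cells, rose by 1.29 ± 0.15, Gzmk by 0.75 ± 0.21 and the perforin gene Prf1 by 0.64 ± 0.15, whereas the natural killer receptor Klrd1 fell by 0.78 ± 0.11 and the chemokine Xcl1 fell by 1.18 ± 0.20. Eomes was at 0.31, 0.61 and 1.01 CPM and then at 0.98, 1.65 and 2.098 CPM, with 15 of 17 old mice above the highest young one. T cell genes were mixed, with Cd28, Cd6 and Icos higher (2 without the 3 mice of low Myh11 and 1 without the 5 of high Hspa1a) and Lck lower, and Cd3d, Cd3e and Cd3g at -0.09 to -0.10 without passing. Of 7 dendritic cell markers 2 rose, Batf3 and Flt3, and of 5 germinal centre markers Rgs13 fell. None of the 12 passed without either set of mice. Among 18 MHC class I genes 6 rose, led by H2-Q6 (0.56 ± 0.12) and 2 fell, Erap1 and Psmb10. H2-Q6, H2-Q7 and H2-Q4 are close copies whose levels are uncertain, since reads that matched several were not counted. Of 30 interferon-stimulated genes 1 rose, Iigp1, with a median of 0.02 over the list, and 0 without the 5 mice of high Hspa1a.

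Antimicrobial and microbe-response genes changed both ways, 8 up and 4 down of 21. Lcn2, an iron-sequestering lipocalin, and Nos2, inducible nitric oxide synthase, rose by 0.53 ± 0.11 and 1.02 ± 0.28. Reg3b, a secreted lectin that binds bacteria, was at 133, 322 and 9697 CPM at 3 months and at 26.6, 103 and 2384 CPM at 24 months (log2 -2.23 ± 0.52; edgeR adjusted p = 0.00083). The 9697 CPM belong to 3-month mouse 14, and without it the log2 fold change was -1.14 with an adjusted p of 0.0415. Outside 3-month mice 6 and 14 and 24-month mouse 5, the ranges were 133 to 673 CPM and 26.6 to 196 CPM. Within the batches the difference was 0.90, -2.51 and -4.50, so batch 1, with 24-month mouse 5, went the other way. Reg3g followed the same mice, at 41.6, 109 and 2082 CPM and then 14.2, 43.6 and 406 CPM. Saa1, serum amyloid A, fell by 0.89 ± 0.18. Without the 5 mice of high Hspa1a, 3 of the 21 genes rose and 3 fell.

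**Figure D4:**
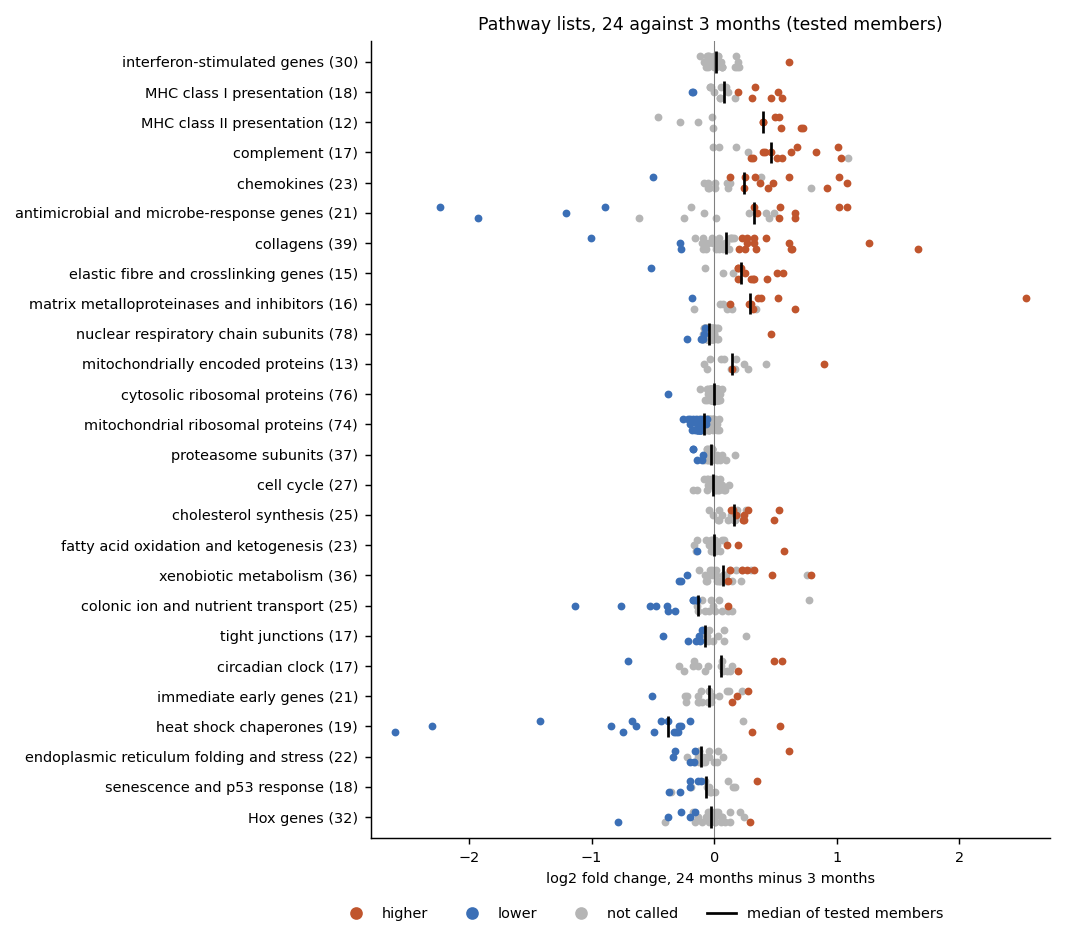
Log2 fold change (24 months minus 3 months) of each tested member of 26 pathway lists, with the number tested in brackets; orange and blue points passed the test as higher and lower, grey points did not, and black bars are medians. Complement, MHC class II, elastic fibre and metalloproteinase lists lie to the right with medians of 0.22 to 0.47, heat shock genes spread to the left with a median of -0.37, and ribosomal, proteasome and cell cycle genes stay near 0.

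Among metabolic and growth genes the shifts were small. Of 74 mitochondrial ribosomal proteins 32 fell and none rose, with a median log2 fold change of -0.08, whereas of 76 cytosolic ribosomal proteins 1 fell, with a median of 0.00. Mrps35 was at 36.1, 38.6 and 44.4 CPM and then at 31.8, 35.8 and 39.6 CPM (log2 -0.15 ± 0.03). The mitochondrial count was 12 without mice 10, 12 and 16 and 4 without the 5 mice of high Hspa1a. Of 78 nuclear genes of the respiratory chain 6 fell and 1 rose, and of 13 mitochondrially encoded ones 2 rose. Without either set of mice 1 nuclear gene fell. Of 37 proteasome subunits 5 fell, and 2 without the 5 mice of high Hspa1a. Cholesterol synthesis genes rose in 9 of 25 and none fell, with a median of 0.16. Insig1, a sterol sensor, rose by 0.53 ± 0.16, and Fdft1, of squalene synthesis, by 0.27. Leaving out mice 10, 12 and 16 left 1 of the 25, and leaving out the mice of high Hspa1a left none, with medians of 0.15 and 0.13. Fatty acid oxidation genes rose in 3 of 23, Pdk4 by 0.57 ± 0.17, and fell in 1. The rises numbered 1 without the 5 mice of high Hspa1a. Xenobiotic metabolism genes rose in 7 of 36 and fell in 3, and without those 5 mice 3 rose and 1 fell. Gsta1, a glutathione transferase, was the clearest, at 4.10, 4.75 and 8.68 CPM and then at 6.43, 9.08 and 13.1 CPM (log2 0.79 ± 0.10; edgeR adjusted p = 1.3e-09), with 10 of 17 old mice above the highest young one. Of 17 clock genes 3 rose and 1, Per2, fell (-0.70 ± 0.24), while Hlf and Bhlhe41 rose by 0.49 and 0.55. Per2 had an adjusted p of 0.149 without the 3 mice of low Myh11 and 0.863 without the 5 of high Hspa1a, and 1 and 2 clock genes then rose. Of 18 senescence and p53 response genes 1 rose and 6 fell, Glb1 by 0.20 ± 0.04 and Aen by 0.37 ± 0.08. Of these 4 fell without the 3 mice of low Myh11 and 3 without the 5 of high Hspa1a, and none rose. Of 21 immediate early genes 3 rose and 1, Nr4a2, fell, and none passed without the 5 mice of high Hspa1a. Of 22 endoplasmic reticulum folding genes 5 fell, Hspa5 by 0.34 ± 0.10, and 1 rose. Without the 3 mice of low Myh11 1 fell and 2 rose, and without the 5 of high Hspa1a 1 fell and 1 rose, with the list's median going from -0.11 to -0.03.

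Heat shock chaperones refold proteins in stressed cells. Of 19 genes 16 fell and 2 rose, with a median of -0.37. Hspa1a was at 4.99, 8.32 and 186 CPM at 3 months and at 4.08, 5.28 and 14.1 CPM at 24 months (log2 -2.60 ± 0.37; edgeR adjusted p = 4.68e-08). Hsph1, a co-chaperone of the same system, was at 38.9, 83.5 and 444 CPM and then at 28.5, 43.4 and 103 CPM (-1.42 ± 0.25). The high young values are those of mice 5, 10, 13, 15 and 16, at 208 to 444 CPM for Hsph1, against 38.9 to 129 CPM in the other 11. Without these 5 mice Hspa1a was at -0.31 with an adjusted p of 0.399, Hsph1 at -0.44 with 0.155 and Hspa8, the constitutive chaperone, at -0.29 with 0.041. Then 1 of the 19 genes fell and 1 rose, with a median of -0.13. These mice were picked by the same genes, so the values without them are a description. What set these mice apart was not tested. The genes that rose, Hspb1 and Cryab (0.54 ± 0.15 and 0.31 ± 0.14), are small heat shock proteins abundant in muscle. With colonocyte and smooth muscle scores in the model, 14 of the 19 genes fell and 0 rose, and the cause of these differences was not tested.

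The heat shock element, alternating GAA and TTC units to which heat shock factors bind, was searched in the same RefSeq windows as GAANNTTCNNGAA on both strands. It was in 4 of the 15 listed genes with a window (Hsph1, Chordc1, Hspd1 and Hspe1) and in 0.603% of all windows. No match for these letters was in the windows of Hspa1a and Hspb1. The windows of Hspd1 and Hspe1, mitochondrial chaperonins that fell by 0.32 and 0.29, overlap on opposite strands. Windows are shown for 3 genes that fell, with all matches in capitals, Hsph1 at chr5:149636266-149636565 (minus strand), Chordc1, a co-chaperone of Hsp90 that fell by 0.67, at chr9:18292017-18292316 (plus strand) and Hspd1 at chr1:55087883-55088182 (minus strand).
Hsph1: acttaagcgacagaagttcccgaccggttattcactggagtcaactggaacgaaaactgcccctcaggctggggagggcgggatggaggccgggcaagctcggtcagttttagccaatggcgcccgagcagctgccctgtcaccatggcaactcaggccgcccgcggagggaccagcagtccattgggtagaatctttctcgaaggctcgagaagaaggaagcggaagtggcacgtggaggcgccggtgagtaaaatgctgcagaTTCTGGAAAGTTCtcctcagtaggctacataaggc
Chordc1: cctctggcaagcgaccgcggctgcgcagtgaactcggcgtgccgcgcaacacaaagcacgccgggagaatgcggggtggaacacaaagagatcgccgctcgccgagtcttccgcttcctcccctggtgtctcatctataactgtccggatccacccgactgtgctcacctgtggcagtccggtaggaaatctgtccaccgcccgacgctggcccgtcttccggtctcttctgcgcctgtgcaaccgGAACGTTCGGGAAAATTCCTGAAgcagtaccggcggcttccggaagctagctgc
Hspd1: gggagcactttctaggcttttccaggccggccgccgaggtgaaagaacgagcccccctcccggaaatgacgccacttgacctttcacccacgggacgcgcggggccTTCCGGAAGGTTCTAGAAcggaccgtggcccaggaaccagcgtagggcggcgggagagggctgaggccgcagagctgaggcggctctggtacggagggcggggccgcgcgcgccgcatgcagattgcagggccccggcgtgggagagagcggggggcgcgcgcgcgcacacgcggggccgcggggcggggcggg

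**Figure D5:**
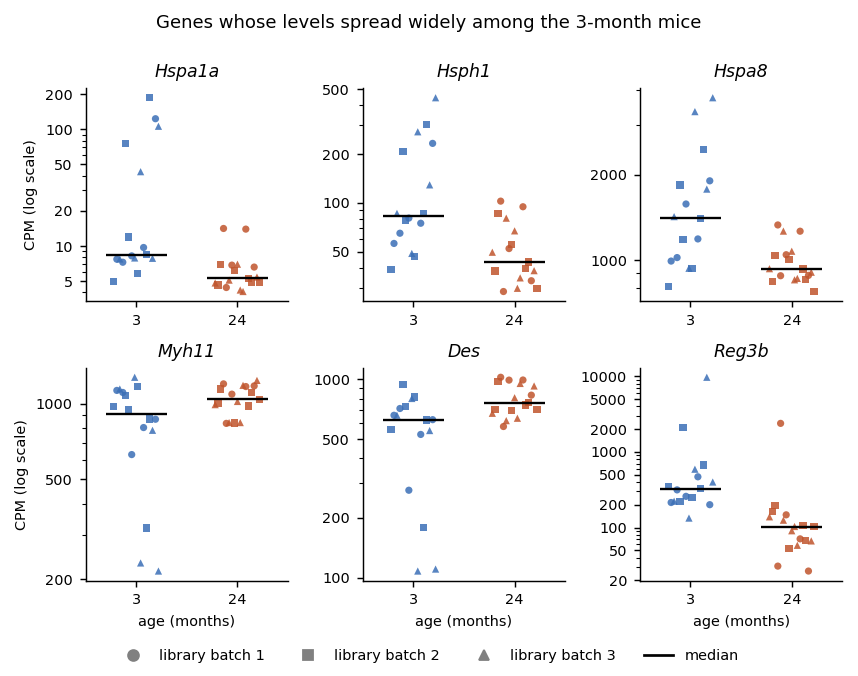
Levels in CPM (log scale) of 6 genes in each mouse at 3 months (blue, n = 16) and 24 months (orange, n = 17); symbols give the library batch and lines the median. The 5 highest 3-month mice reach 43.3 to 186 CPM of Hspa1a, the 3 lowest have 216 to 320 CPM of Myh11, and 1 mouse has 9697 CPM of Reg3b.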

How the data were processed

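Colons of 83 mice were sequenced as polyadenylated, stranded libraries. The values used are whole read counts per gene, deposited by the authors as one table. Per the study's methods, reads were trimmed with cutadapt 2.8 and PrinSeq Lite, aligned to GRCm38 with HISAT2 2.1.0, kept where unique with SAMtools 1.9, and counted by strand with featureCounts (Subread 2.0.1), so reads that map to several copies of a gene are lost. Groups came from the age in the labels and columns from their names. Symbols came from a GENCODE annotation of GRCm38, with 112 of 37764 genes unmatched.

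Counts were fitted with edgeR 4.0.16 (R 4.3.3; TMM scaling, filterByExpr by age) over all 83 mice with age and library batch as terms. The quasi-likelihood F-test of 24 minus 3 months was adjusted by Benjamini-Hochberg over 18325 genes and called below 0.1, the level the study used. CPM values are TMM-scaled, and fold changes with standard errors are the model's. Totals were 26758538 to 46046256 counts at 3 months and 27802569 to 50861544 at 24 months. No libraries were duplicates: squared differences between mice of an age were on average at least 12.7 times those of counting noise. The labels give each library as a separate sample, and p-values measure the spread between these samples.

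Named genes were the 12 largest rises and falls (mean of at least 1 CPM, same direction in all 3 batches, no immunoglobulin segment or unnamed model), the 5 of smallest p each way, and up to 4 called members per list and direction. The members, the 51 lists and the 6 added lists were chosen with earlier results of these data known, and other list members given with values were picked after their values were seen. A few listed genes are counted in their lists and not reported here by name. Alternatives were DESeq2 1.42.0, its size factors, no filter or a stricter one, no batch term, the 33 mice alone, the replicate number as a block, marker scores as covariates, each batch alone and each library left out. The fit was tested on simulated data. Figures were drawn with matplotlib 3.10.9.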

Additional observations from a re-analysis of the deposited data

How the results depend on the processing

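Of 18325 genes, 6316 were called, 3054 higher and 3262 lower. Other settings gave 6661 (DESeq2), 6298 (DESeq2 size factors), 5877 (no filter), 5559 (a minimum of 10 counts per mouse), 6093 (batch left out of the model), 6054 (the 33 mice alone), 4904 (adjusted p below 0.05) and 4621 (scores of smooth muscle and B cells added as covariates). With colonocyte and smooth muscle scores there were 4171, 1924 of them higher. With fewer mice, batches 1, 2 and 3 alone gave 384, 834 and 1268 genes, of which 232, 591 and 705 were higher and 152, 243 and 563 lower. In settings chosen after seeing the data, leaving out 3-month mice 10, 12 and 16 gave 4045 genes, 1996 of them lower, and leaving out the 5 mice of high Hspa1a gave 3075, 1570 higher and 1505 lower. With each library left out in turn the count was 5177 to 6682. The replicate number as a block gave 6154. Same-numbered mice had correlations of -0.396 to 0.281 over 16 pairs and 0 of 16 correlated best with their own number, so the numbers do not pair mice. Of 244 named genes, 28 were not called in at least 1 fit without 1 library. Directions turned in batch 1 for Reg3b (0.90), Col11a2 (0.06), Ndufb5 (0.049), Atp5f1 (0.006) and Ndufa6 (0.048), in batch 2 for Pi16 (-0.056), Wt1 (-0.004) and Maff (-0.075), and with the covariates for Tagln (-0.025 and -0.029), which is itself in the smooth muscle score, and Cryab (-0.042 and -0.037), all as log2 fold changes. The cause was not tested. Depth limits genes under about 1 CPM, where few read pairs per library stand behind a value.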
